A study of Arabidopsis thaliana with 22 samples.

Results

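*QQS* (AT3G30720), *MRD1* (AT1G53480), *CYP21-2* (AT3G55920), AT3G05170 and AT2G04885 are 5 Arabidopsis genes, of 32833 in the expression table, that were chosen by their mutant-WT differences: *baf1* and *bes1-D* shifted each of them from the wild type (WT) by a like amount, with or without brassinazole (BRZ). Those differences are therefore given as a description and were not tested. The tests below concern their response to BRZ within a genotype and their neighbours on the chromosome. Neither chose them directly, but the choice of a like shift with and without BRZ ties the responses of the genotypes to each other.

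QuantSeq, a method that sequences the 3′ ends of mRNAs, was run on 22 libraries of whole 7-day seedlings of the accession Col-0. WT, *baf1* and *bes1-D* were grown on medium with the solvent DMSO (BRZ0) or with 250 nM BRZ (BRZ250), an inhibitor of brassinosteroid synthesis, so that all plants of a BRZ0 group had the solvent. The BRZ0 groups held 4 libraries each, and the BRZ250 groups held 4 libraries of *baf1* and 3 each of WT and *bes1-D*. *baf1* is a single T-DNA insertion line, GABI_001F08, that disrupts the F-box protein gene *BAF1*. *bes1-D* carries a dominant allele of *BES1*, with a proline-to-leucine change that stabilizes the protein, and was brought into Col-0 by crossing. Each genotype is thus represented by 1 line, and whether the WT seed came from the same seed stock or generation as either mutant is not given in the sources used here. The columns of the table sum to between 3633740 and 3636540 normalized reads, and the depth estimated from the steps between low values was 2055520 to 5239460 reads per library. In WT, *BAF1* (AT1G76920) had 218 to 399 normalized reads, against 0.0627 to 13.5 in *baf1*. It was also lower in *bes1-D* than in WT without BRZ, at 225 to 258 against 290 to 399 normalized reads (log2 difference −0.46, adjusted p = 0.0207, limma), a call that was lost without *bes1-D* replicate 2, 3 or 4 (adjusted p up to 0.0690). *BES1* had 357 to 599 normalized reads over all 22 libraries, and no mutant-WT difference in it passed the test. The shoot markers *RBCS1A*, *CAB1* and *RCA* summed to 35388 to 71888 normalized reads over all libraries and the root markers *PYK10*, *PHT1;1* and *TIP2;3* to 10469 to 14832. The shoot sum moved with genotype under BRZ, with all *bes1-D* BRZ250 libraries (35388 to 46965) below all WT BRZ250 libraries (58421 to 68757), and without BRZ *bes1-D* (46884 to 51703) lay below *baf1* (57539 to 63207) and overlapped WT (47543 to 61675). Its part in the *bes1-D* results was not tested. The sum of 12 seed storage genes ran from 7.80 normalized reads in a *baf1* BRZ0 library to 1779 in *baf1* BRZ250 replicate 4. With BRZ it was 8.13 to 21.9 in *bes1-D*, below the 25.7 to 298 in WT, and 141 to 1779 in *baf1*. Without BRZ it was 15.1 to 18.2 in *bes1-D*, 10.6 to 78.5 in WT and 7.80 to 506 in *baf1*. The part of this sum in the mutant-WT differences was not tested.

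Brassinosteroids are growth-promoting plant steroids that act through the transcription factors BES1 and BZR1, and BAF1 is an E3 ligase component for BES1. *QQS* is an orphan gene, found in Arabidopsis thaliana without a recognizable relative in other species, whose small protein binds the transcription factor subunit NF-YC4 and shifts carbon from starch towards protein. Its expression is known to differ among natural accessions together with the DNA methylation of its upstream region, and in Col-0 lines a changed methylation and expression state can be inherited. DNA methylation was not measured in these seedlings. Of the other members, *MRD1* takes its name from a lower expression in *mto1*, a mutant that overaccumulates methionine. *CYP21-2* encodes a cyclophilin, a peptidyl-prolyl isomerase that helps proteins to fold. AT3G05170 encodes a member of the phosphoglycerate mutase family, and AT2G04885 is annotated as a long non-coding RNA.

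The members lie far apart. In the TAIR10.1 annotation, *QQS* spans chr3:12349047-12349933 (+ strand), and its longest coding sequence of 180 bases encodes 59 residues. AT2G04885 is a single exon at chr2:1927015-1927479 (+ strand). *MRD1* lies at chr1:19963047-19964712 (− strand), AT3G05170 at chr3:1466483-1468400 (+ strand) and *CYP21-2*, with 8 exons, at chr3:20743443-20745153 (− strand). *MRD1*, the only member on the chromosome of the mutated genes, is 8929 kb and 2823 genes away from *BAF1* and 13275 kb and 2998 genes away from *BES1*. *QQS* and AT2G04885, the members that were low in the mutants, each have an annotated pseudogene within 1 kb, at 341 and 334 bases. Of all 32548 genes with a model in this annotation 6.19% have one so close, and the other 3 members are 51509 bases or more from the nearest.

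The 250 bases before the annotated start are shown for the 4 members with the largest shifts, 2 low and 2 high in the mutants, since BES1 binds E-boxes (CANNTG) and the elements CGTGTG and CGTGCG. The windows come from the RefSeq TAIR10.1 genome and run 5′ to 3′ on the strand of the gene. Capitals mark matches to CANNTG in *MRD1* and AT3G05170, and in *QQS* a repeat of 30 letters. No capitals stand in AT2G04885, where no motif matched.
QQS, chr3:12348797-12349046: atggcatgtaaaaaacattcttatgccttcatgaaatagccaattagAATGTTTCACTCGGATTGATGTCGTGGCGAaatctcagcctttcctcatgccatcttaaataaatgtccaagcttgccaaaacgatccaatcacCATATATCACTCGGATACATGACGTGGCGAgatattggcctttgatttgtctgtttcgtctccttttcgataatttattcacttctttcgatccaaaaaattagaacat
AT2G04885, chr2:1926765-1927014: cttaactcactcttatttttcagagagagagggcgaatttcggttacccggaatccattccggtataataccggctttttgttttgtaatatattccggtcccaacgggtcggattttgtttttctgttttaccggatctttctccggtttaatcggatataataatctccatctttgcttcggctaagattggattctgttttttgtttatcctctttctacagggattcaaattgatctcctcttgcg
MRD1, chr1:19964713-19964962: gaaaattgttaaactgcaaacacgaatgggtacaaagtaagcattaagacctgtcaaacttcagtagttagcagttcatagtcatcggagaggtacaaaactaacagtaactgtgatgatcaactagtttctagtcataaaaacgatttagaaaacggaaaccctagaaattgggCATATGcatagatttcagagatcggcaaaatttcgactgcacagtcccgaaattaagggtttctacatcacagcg
AT3G05170, chr3:1466233-1466482: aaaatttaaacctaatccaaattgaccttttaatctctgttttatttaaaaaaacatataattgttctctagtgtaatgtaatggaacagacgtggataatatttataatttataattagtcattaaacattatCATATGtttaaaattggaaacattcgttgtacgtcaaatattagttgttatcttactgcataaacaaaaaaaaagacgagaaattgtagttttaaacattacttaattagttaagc

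Both strands were searched in all 5 windows for CANNTG and for the G-box CACGTG, which is itself a CANNTG, and for CGTGTG and CGTGCG. The E-box CANNTG matched in 2 of them, as CATATG at 75 bases before the start of *MRD1* and at 116 bases before that of AT3G05170, and 55.7% of the windows of 32546 genes hold this motif. CACGTG matched in none of the 5, nor did CGTGTG or CGTGCG, and 5.90%, 5.24% and 1.47% of all windows hold them in that order. The *QQS* window holds a pair of stretches of 30 letters, starting 203 and 109 bases before the start, that are identical at 24 letters. A pair at least that alike, searched for after the sequence had been read, was found in 3.36% of all windows. The best pair in the other 4 members had 18 or 19 identical letters, which 80.3% and 51.9% of all windows reached. The *QQS* repeat is a description of the letters, and its part in the level of the gene was not tested.

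*QQS* was at a high level in every WT library and at a low level in every mutant library. In WT without BRZ it had 166, 199, 214 and 143 normalized reads in replicates 1, 2, 4 and 5. In WT with BRZ it had 199, 202 and 131 in replicates 1 to 3. The WT libraries of both treatments thus spread over the same range. In *baf1* without BRZ the values were 14.95, 10.9, 12.2 and 14.7 normalized reads, and in *bes1-D* they were 14.3, 14.4, 13.3 and 11.5. With BRZ the values were 8.63, 8.41, 4.31 and 3.83 normalized reads in *baf1*, and 8.49, 6.88 and 6.04 in *bes1-D*. The lowest of the 7 WT libraries lay 8.77-fold above the highest of the 15 mutant libraries. Relative to the WT mean, *QQS* stood at 7.31% in *baf1* and 7.40% in *bes1-D* without BRZ, and at 3.55% and 4.02% with BRZ. On log2 of normalized reads plus 1, *baf1* without BRZ differed from WT by −3.67 (SE 0.18) and *bes1-D* by −3.65 (SE 0.18). With BRZ these differences were −4.66 (SE 0.30) and −4.44 (SE 0.27). The mutant level was low but measurable. The coefficient of variation among replicates was 17.8% (BRZ0) and 22.6% (BRZ250) in WT, above the medians of 12.3% and 11.1% for genes of a like level, with a mean within 1.25-fold of it. Without BRZ it was 14.7% in *baf1* and 9.80% in *bes1-D*, below the medians of 31.7% and 31.0%.

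**Figure D1:**
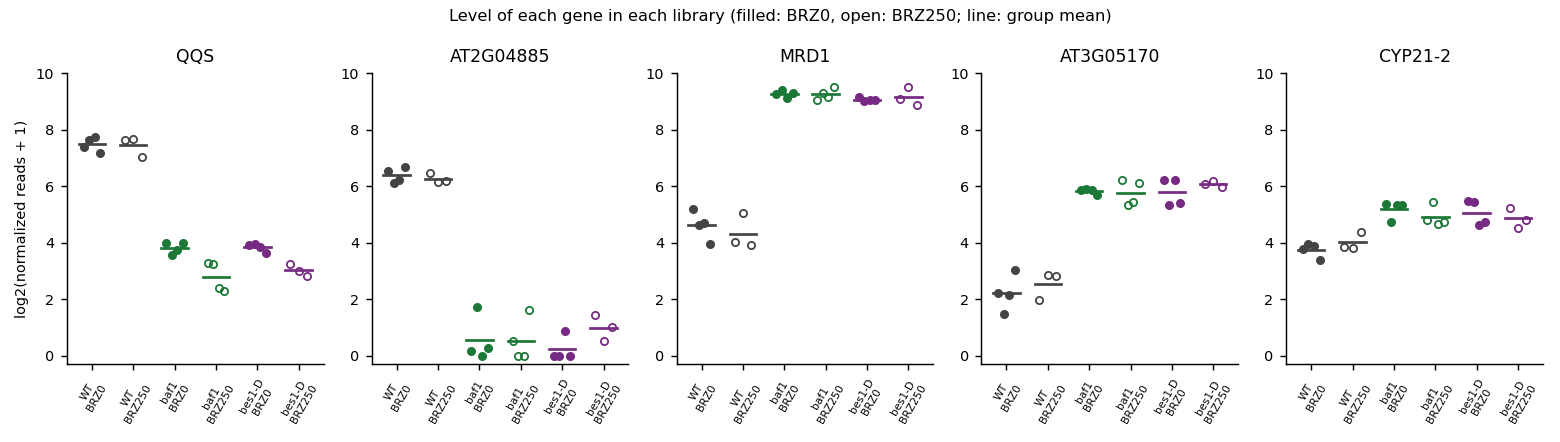
Level of the 5 genes in each of the 22 libraries, as log2 of normalized reads plus 1, by genotype and treatment. Filled points are BRZ0 libraries, open points are BRZ250 libraries, and lines are group means. *QQS* and AT2G04885 are high in all 7 WT libraries, and *MRD1*, AT3G05170 and *CYP21-2* are high in all 15 mutant libraries.

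AT2G04885 was the member closest to an on-off pattern. It had 91.8, 68.1, 73.4 and 102 normalized reads in WT replicates 1, 2, 4 and 5 without BRZ, and 86.6, 70.3 and 70.9 in WT replicates 1 to 3 with BRZ. In *baf1* it had 0.115, 2.31, 0 and 0.211 normalized reads without BRZ, and 0.422, 0, 0 and 2.08 with BRZ. In *bes1-D* it was at 0 in 3 of 4 libraries and at 0.830 in replicate 3 without BRZ, and at 1.72, 0.416 and 1.02 with BRZ. All 15 mutant libraries were thus under a floor of 3 normalized reads per library, so the ratio to WT is only bounded. Against that floor the WT mean was at least 27.9-fold higher without BRZ and at least 25.3-fold higher with BRZ. Within this range the differences among the mutant libraries were not measurable at this depth.

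*MRD1* went the other way and had the largest rise of the 5. Its values in WT were 35.8, 23.8, 24.9 and 14.5 normalized reads without BRZ, and 15.1, 31.7 and 14.0 with BRZ. In *baf1* they were 607, 671, 558 and 627 without BRZ, and 535, 631, 572 and 724 with BRZ. In *bes1-D* they were 568, 519, 526 and 527 without BRZ, and 544, 733 and 465 with BRZ. The lowest mutant library lay 13.0-fold above the highest WT library. The ratio of means to WT was 24.9 in *baf1* and 21.6 in *bes1-D* without BRZ, and 30.4 and 28.7 with BRZ. The coefficients of variation in WT were 35.2% and 49.1% without and with BRZ, where genes of a like level had medians of 24.1% and 25.5%. In *baf1* they were 7.57% and 13.4%, beside medians of 6.655% and 10.5%. In *bes1-D* they were 4.17% and 23.7%, beside medians of 7.98% and 11.3%.

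AT3G05170 was near the floor in WT, where it had 3.63, 1.77, 3.47 and 7.08 normalized reads without BRZ and 2.89, 6.18 and 6.09 with BRZ. In *baf1* it had 57.9, 58.6, 56.9 and 50.7 without BRZ, and 73.1, 39.6, 42.4 and 67.6 with BRZ. In *bes1-D* it had 73.8, 39.7, 74.0 and 41.7 without BRZ, and 66.4, 71.8 and 61.3 with BRZ. The gap between the highest WT and the lowest mutant library was 5.59-fold. The ratios of means were 14.1 in *baf1* and 14.4 in *bes1-D* without BRZ, and 11.0 and 13.1 with BRZ. In *bes1-D* without BRZ the libraries formed a higher pair and a lower pair, and the coefficient of variation of 33.5% compares with a median of 15.5% for genes of a like level. The *baf1* libraries with BRZ were likewise a higher and a lower pair (30.8%, against a median of 17.3%). It was 6.50% in *baf1* without BRZ and 7.96% in *bes1-D* with BRZ.

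*CYP21-2* showed the smallest shift and the narrowest gap. In WT it had 12.6, 14.3, 13.9 and 9.48 normalized reads without BRZ, and 13.3, 12.9 and 19.96 with BRZ. In *baf1* it had 39.9, 25.7, 39.0 and 39.4 without BRZ, and 26.9, 41.9, 24.0 and 25.3 with BRZ. In *bes1-D* it had 43.2, 42.1, 23.8 and 25.2 without BRZ, and 36.3, 22.1 and 27.1 with BRZ. The groups did not overlap, but the lowest mutant library was only 1.11-fold above the highest WT library. The ratios of means were 2.87 in *baf1* and 2.67 in *bes1-D* without BRZ, and 1.92 and 1.85 with BRZ. With BRZ its log2 differences of 0.89 (SE 0.29) and 0.85 (SE 0.33) fell below 1, the size that the other 4 members passed in every comparison.

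In bulk seedlings, fewer cells that express a gene and less RNA per cell cannot be told apart. In each of the 4 mutant-WT comparisons the libraries of the mutant and of WT did not overlap for 5 of 5 members. Among all genes tested this held for 6.46% (*baf1* BRZ0), 6.69% (*baf1* BRZ250), 14.4% (*bes1-D* BRZ0) and 27.9% (*bes1-D* BRZ250), and since these comparisons chose the members, nothing is read from the contrast. Of 16331 genes whose mean reached 10 normalized reads, 15 (0.0918%) separated all 7 WT from all 15 mutant libraries, the 5 members among them. Among the other 10 were the sugar transporter gene *STP1*, with mean levels of 3270 normalized reads in WT and 2111 in the mutants, and the lipid transfer protein gene *LTP6*, with 107 and 180. An equal change was defined as log2 differences of 1 sign, at least 1 in size in all 4 comparisons, and within 0.5 of each other between the mutants in each treatment. It was met by 4 genes (0.0245%), which were *QQS*, AT2G04885, *MRD1* and AT3G05170. *CYP21-2* lay just outside on size. *AATP1* was the only non-member with a mean of 10 or more that reached 1 in all 4 comparisons (5 genes, 0.0306%). It lay well outside the allowed gap of 0.5, with −2.85 in *baf1* and −1.09 in *bes1-D* with BRZ. Below a mean of 10, where values are less certain, 10 further genes reached 1 in all 4 comparisons and 7 of them met the whole definition, so that it was met by 11 genes without a filter. The highest of the 7 in level was the germin-like protein gene *GLP4*, with a mean of 7.69 normalized reads over all libraries and log2 differences of 1.28 and 1.22 in *baf1* and *bes1-D* without BRZ, and 1.49 and 1.33 with BRZ. Between the mutants themselves, the log2 differences of the 5 members (*bes1-D* minus *baf1*) lay between −0.32 and 0.02 without BRZ and between −0.10 and 0.45 with BRZ, and the libraries of the mutants overlapped for every member in both treatments. The −0.32 and the 0.45 are those of AT2G04885, which was under the floor in both mutants.

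**Figure D2:**
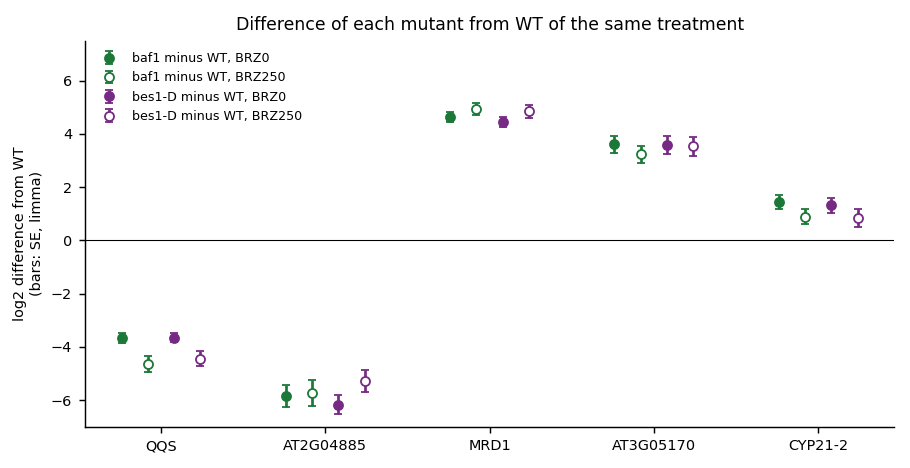
Log2 difference of each mutant from WT of the same treatment for the 5 genes, with standard errors from limma. The values of *baf1* and *bes1-D* lie close together for every gene, for example −3.67 and −3.65 for *QQS* without BRZ, and the genes differ in size and direction.

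The response to BRZ within a genotype was not used to choose the members, although the choice did ask that the mutant shift be alike with and without BRZ, so the responses of the 3 genotypes are not independent of each other. No member passed the test in any genotype (limma, adjusted p under 0.05 over all genes, under which 1.8% of genes were called in *baf1*, 0.605% in WT and 0.576% in *bes1-D*). A test needed a mean that reached 10 normalized reads across both groups, which 3 members had in *baf1* and 4 each in WT and *bes1-D*. At the study's criterion, an unadjusted p under 0.05 with a fold change above 1.1, *QQS* in *bes1-D* was the only call (1 of 4, against 14.6% of all genes), and there were 0 in WT and 0 in *baf1* (10.2% and 12.5% of all genes), where *QQS* was under the filter. In WT, the log2 difference of *QQS* between BRZ250 and BRZ0 was −0.03 (SE 0.18, adjusted p = 0.970, limma), that of AT2G04885 was −0.13 (SE 0.18, adjusted p = 0.871) and that of *MRD1* was −0.31 (SE 0.35, adjusted p = 0.834). *MRD1* in *baf1* was the most precise of these, at −0.01 (SE 0.10, adjusted p = 0.988, limma). AT3G05170 differed by 0.27 (SE 0.22) in *bes1-D* and −0.06 (SE 0.20) in *baf1*, and *CYP21-2* by 0.26 (SE 0.33), −0.29 (SE 0.23) and −0.21 (SE 0.27) in WT, *baf1* and *bes1-D*.

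The largest BRZ differences among the members were those of *QQS* in the mutants, where its level was low. Its mean was 13.4 ± 1.31 normalized reads (SD, n = 4) in *bes1-D* without BRZ and 7.14 ± 1.24 (SD, n = 3) with BRZ. The log2 difference was −0.83 (SE 0.37), with an unadjusted p of 0.0376 and an adjusted p of 0.306 (limma). The unadjusted p was no longer under 0.05 in 5 of 7 fits that left out a library, all but those without *bes1-D* BRZ0 replicate 4 or BRZ250 replicate 1 (up to 0.0942, limma), nor with the replicate number as a block (0.171). In *baf1* it went from 13.2 ± 1.94 to 6.29 ± 2.58 normalized reads (SD, n = 4 each), a log2 difference of −1.02. The mean over these 8 *baf1* libraries was under the filter. Without a filter the unadjusted p was 0.0128 and the adjusted p 0.406 (limma), and with all 22 libraries in 1 fit, which pools the spread of the 6 groups, it was 0.0186. In neither mutant did the BRZ250 libraries overlap the BRZ0 libraries, as was the case for 7.72% of tested genes in *baf1* and 11.5% in *bes1-D*. In WT, where 10.5% of tested genes did not overlap, the BRZ250 and BRZ0 libraries of *QQS* did. Whether the BRZ difference of *QQS* differed between genotypes was not tested, since the choice of members used it.

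**Figure D3:**
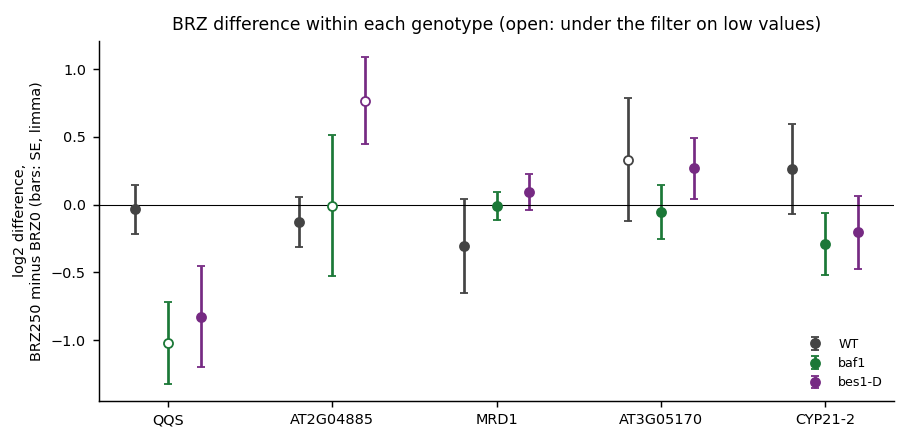
Log2 difference between BRZ250 and BRZ0 within WT, *baf1* and *bes1-D* for the 5 genes, with standard errors from limma. Open points are genes under the filter on low values in that genotype. *QQS* lies at −1.02 in *baf1*, −0.83 in *bes1-D* and −0.03 in WT. The next largest value, 0.77, is that of AT2G04885 in *bes1-D*, where it is under the floor of 3 normalized reads.

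Most neighbours of the members were too low to test, and few of the others differed between mutant and WT. The 5 nearest genes on each side of every member that are in the expression table, 50 in all, were followed in the 4 mutant-WT comparisons. Annotated genes absent from that table were skipped, such as the pseudogene 341 bases from *QQS*. Only 17 of them reached a mean of 10 normalized reads, and 24 had a mean under 1. *QQS* had the quietest neighbours, with 9 of its 10 under 1 and none at 10 or more. They are also distant, at 16233 to 202545 bases on 1 side and 2539 to 95560 bases on the other. In *baf1* none of the tested neighbours passed the test, either of 17 without BRZ or of 16 with BRZ (limma, adjusted p under 0.05, against 0.129% and 0.0488% of all genes). At the study's criterion there were 3 and 0 (against 10.3% and 5.6% of all genes). In *bes1-D*, 1 of 17 was higher without BRZ, where 4.09% of all genes were called higher and 7.52% in either direction. With BRZ 2 of 17 were lower, where 5.3% of all genes were called lower and 11.1% in either direction. At the study's criterion these counts were 4 and 6 of 17 (against 22.3% and 24.4% of all genes).

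The neighbour called higher was AT3G05180, which lies tail to tail with AT3G05170 on the opposite strand and overlaps it by 3 bases. The study's methods name a QuantSeq FWD pipeline, but the strand setting of the read counting is not given in the sources used here. Whether reads of AT3G05170 were counted for AT3G05180 is therefore not known, and its values are uncertain. It went from 8.17 ± 4.38 normalized reads in WT to 21.5 ± 6.25 in *bes1-D* without BRZ (SD, n = 4 each), with a log2 difference of 1.38 (SE 0.37, adjusted p = 0.0301, limma). In *baf1* it had 14.7 ± 3.90 (SD, n = 4), with an adjusted p of 0.462 (limma). The *bes1-D* call was lost without WT replicate 2 or without *bes1-D* replicate 1, 2 or 3 (adjusted p up to 0.109). With BRZ it had 11.1 ± 6.29 normalized reads in WT and 11.5 ± 6.46 in *bes1-D* (SD, n = 3 each), and it did not pass the test. The neighbours that fell were AT3G05160, on the other side of AT3G05170, and AT3G55960, the fifth gene after *CYP21-2*. AT3G05160 went from 85.2 ± 7.42 to 37.3 ± 6.12 normalized reads (SD, n = 3 each, log2 difference −1.18, adjusted p = 0.00111, limma), and AT3G55960 from 71.0 ± 17.0 to 35.2 ± 17.8 (SD, n = 3 each, log2 difference −1.07, adjusted p = 0.0217, limma). The AT3G55960 call was lost without WT replicate 2 or 3 or *bes1-D* replicate 3 (adjusted p up to 0.120). Both were opposite in direction to the members beside them.

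The other neighbours that overlap a member are uncertain for the same reason. *HEI10*, a gene for meiotic crossover, overlaps *MRD1* by 1446 bases on the opposite strand. It ran from 0 to 5.84 normalized reads (median 1.23) in WT and from 2.32 to 14.8 (median 5.35) in the mutants. Over both treatments the genotypes overlapped, but without BRZ all WT libraries (0 to 1.79) lay below all libraries of *baf1* (2.32 to 14.8) and of *bes1-D* (4.05 to 11.99), with log2 differences of 1.98 (SE 0.54) and 2.24 (SE 0.41). In a fit without a filter these had unadjusted p of 0.00880 and 0.00113 and adjusted p of 0.496 and 0.0646 (limma). AT1G07887, a non-coding RNA on the opposite strand that overlaps *MRD1* by 1039 bases, had a mean of 0.144 normalized reads over all libraries. AT3G55910 overlaps *CYP21-2* by 37 bases on the opposite strand, and ran from 0 to 2.26 normalized reads (median 0.300) in WT and from 0.113 to 6.50 (median 3.15) in the mutants, with no overlap between *baf1* and WT in either treatment. AT3G55890, which is 1002 bases from *CYP21-2* and does not overlap it, ran from 0.693 to 5.75 (median 2.76) in WT and from 0.366 to 15.1 (median 7.505) in the mutants, with no overlap between *bes1-D* and WT in either treatment. Among all genes tested, the libraries did not overlap WT for 6.46% and 6.69% in *baf1*, without and with BRZ. In *bes1-D* these shares were 14.4% and 27.9%. These 3 low neighbours, *HEI10*, AT3G55910 and AT3G55890, were named after their values had been seen. Over both treatments they had higher medians in the mutants, like the member beside them, and none reached an adjusted p under 0.05 in a fit without a filter. In *bes1-D* with BRZ the log2 differences of *HEI10* and AT3G55910 were within their errors, at 0.29 (SE 0.48) and 0.28 (SE 0.65). That of AT3G55890 was 1.92 (SE 0.49). Not all neighbours followed their member. AT2G05310, near AT2G04885, was higher than WT without overlap in *baf1* and *bes1-D* without BRZ (log2 differences 0.21 and 0.21). The same held in *bes1-D* with BRZ (0.39), though AT2G05310 did not pass the test in any comparison.

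**Figure D4:**
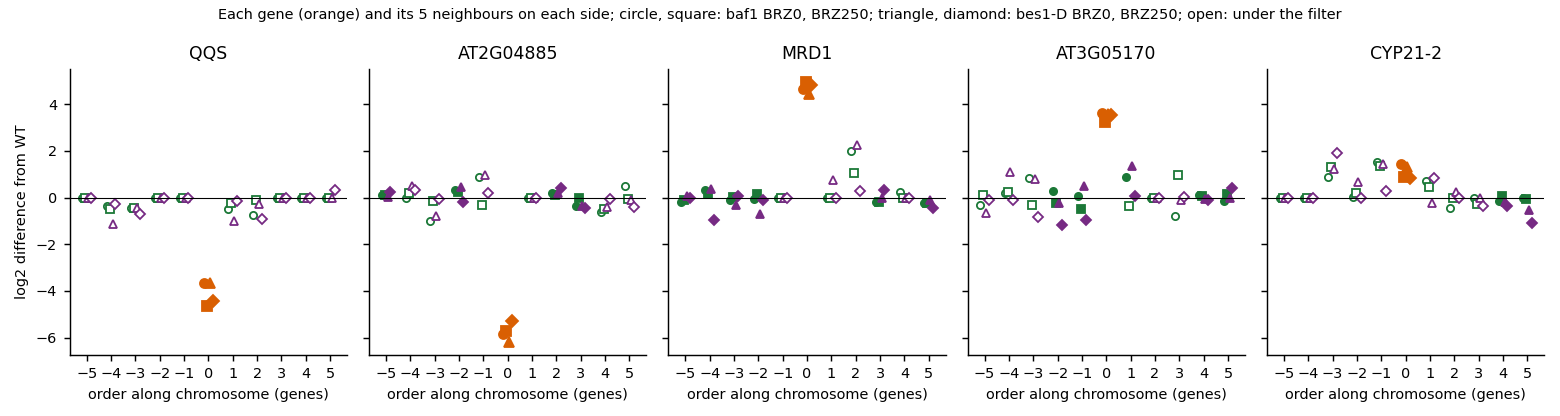
Log2 difference from WT of each member (orange, at 0) and of the 5 genes on each side of it in the 4 mutant-WT comparisons. Open symbols are genes under the filter on low values. The members stand at −6.17 to 4.94, and the largest neighbour value is that of *HEI10*, 2.24 in *bes1-D* without BRZ.

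The wider families and pathways of the members were followed in lists of genes, whose counts stand beside 0.129% and 0.0488% of all genes called in *baf1* and 7.52% and 11.1% in *bes1-D*, without and with BRZ. Of 22 genes for DNA methylation and silencing, 16 could be tested and none passed the test in *baf1* without BRZ, nor did any of 17 with BRZ. The maintenance methyltransferase gene *MET1* had log2 differences of 0.19 (SE 0.13) and 0.09 (SE 0.15) in *baf1*, and 0.25 (SE 0.16) and 0.39 (SE 0.17) in *bes1-D*. In *bes1-D* with BRZ 2 of 16 (beside 11.1% of all genes) rose, the methylcytosine-binding gene *VIM1* (log2 difference 0.67, adjusted p = 0.0225, limma) and the chromomethylase gene *CMT3* (0.78, adjusted p = 0.0452), and none of 16 passed without BRZ. Both calls were lost without WT replicate 1 or 3 or *bes1-D* replicate 3 or 5 (adjusted p up to 0.139 and 0.203). The median log2 difference of the 16 was 0.38 there, beside 0.04 for all genes.

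Of 25 genes of starch metabolism, *NF-YC4* included, 24 were tested. None passed in *baf1* in either treatment. *NF-YC4*, the partner of QQS, had log2 differences of 0.07 (SE 0.16) and 0.07 (SE 0.16) in *baf1*, and 0.18 (SE 0.14) and −0.17 (SE 0.19) in *bes1-D*. In *bes1-D* 1 of 24 rose without BRZ (beside 7.52% of all genes called), and with BRZ 2 of 24 rose and 1 fell (beside 11.1%). The chloroplast beta-amylase gene *CT-BMY* rose there in both treatments (0.46, adjusted p = 0.00532, and 0.85, adjusted p = 0.000259, limma). With BRZ *LSF1*, a regulator of starch breakdown, also rose (1.22, adjusted p = 0.00547), and the granule-bound starch synthase gene *GBSS1* fell from 24.7 ± 3.17 to 4.69 ± 0.376 normalized reads (SD, n = 3 each, adjusted p = 0.00115, limma).

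Of the 27 other cyclophilin genes tested, 1 rose in *baf1* without BRZ, the chloroplast cyclophilin gene *ROC4*, from 884 ± 108 to 1276 ± 68.8 normalized reads (SD, n = 4 each, log2 difference 0.54, adjusted p = 0.0228, limma). This call held without WT replicate 4 or 5 and was lost without any of the other 6 libraries (adjusted p up to 0.157). None passed in *baf1* with BRZ. In *bes1-D* without BRZ *ROC4* (0.49, adjusted p = 0.00805) and AT2G21130 (1.15, adjusted p = 4.80e-05, limma) rose. With BRZ 3 rose and *ROC1* fell (−0.63, adjusted p = 0.00417, limma). Those that rose were *SQN*, for a large cyclophilin with TPR repeats (0.86, adjusted p = 0.0101, and 0.0590 without *bes1-D* replicate 5), AT3G63400 and *ROC7*. The AT3G63400 call (0.59, adjusted p = 0.0109, limma) was lost without WT replicate 1 or 3 or *bes1-D* replicate 3 (up to 0.0648), and the *ROC7* call (0.48, adjusted p = 0.0392) without any of these or *bes1-D* replicate 5 (up to 0.175). Of 15 tested genes of the phosphoglycerate mutase family other than AT3G05170, none passed in *baf1*. In *bes1-D* AT5G04120 fell in both treatments (−1.47 and −1.64, adjusted p = 0.0170 and 0.0359, limma), and *iPGAM2*, for a glycolytic phosphoglycerate mutase, rose without BRZ (0.46, adjusted p = 0.0290). The AT5G04120 calls were lost without WT replicate 1 in either treatment, and also without *bes1-D* replicate 2 of BRZ0 or without replicate 3 of WT or *bes1-D* of BRZ250 (adjusted p up to 0.0696 and 0.190). The *iPGAM2* call was lost in 5 of 8 such fits, without WT replicate 2 or 4 or *bes1-D* replicate 1, 3 or 4 (adjusted p up to 0.112).

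Across the 22 libraries, the closest partner of each of *QQS*, AT2G04885, *MRD1*, AT3G05170 and *CYP21-2* in the same direction was another of the 5. Pearson's r of log2 values was 0.94 between *QQS* and AT2G04885, 0.96 between *MRD1* and AT3G05170, 0.84 between *MRD1* and *CYP21-2*, and −0.96 between *QQS* and *MRD1*. All share the step between WT and mutants that chose the members, so the values are a description over 22 libraries of 6 groups. Of the genes outside the 5, the closest to *QQS* were *ACR9* (r = 0.83), *AATP1* (0.83) and *ARA-2* (0.82), and the closest to AT2G04885 were *ACR9* (0.82), *SYP23* (0.79) and *AATP1* (0.78). For *MRD1* they were *LTP6* (0.83), AT5G39020 (0.82) and AT4G02800 (0.80), and for AT3G05170 *LTP6* (0.81), AT5G39020 (0.80) and AT1G53800 (0.80). *CYP21-2* was closest to *VAMP727* (0.81), *NQR* (0.77) and AT5G08250 (0.76). *AATP1* had 48.7 ± 7.92, 7.58 ± 3.04 and 9.64 ± 3.81 normalized reads in WT, *baf1* and *bes1-D* without BRZ (SD, n = 4 each). With BRZ it had 20.6 ± 4.46 in WT (SD, n = 3), less than in WT without BRZ but above every mutant library, beside 2.201 ± 1.30 in *baf1* (SD, n = 4) and 9.65 ± 4.72 in *bes1-D* (SD, n = 3).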

How the data were processed

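The members, and the lists of related genes, were chosen with earlier results of these data known. Per the labels and the study's methods, 50-bp single-end QuantSeq reads were trimmed, mapped to TAIR10 and counted, and the notes name STAR, HTSeq and edgeR without versions. The authors deposited 1 table of TMM-normalized reads per gene, a signal that is not whole-numbered and has near-equal column totals, so no count model was used. The study's methods name a Lexogen QuantSeq FWD pipeline. The strand setting and the parameters of the counting are not given in the sources used here.

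Values were analysed as log2(value + 1), in pairs of groups, with limma 3.58.1 in R 4.3.3 (trend) on genes with a mean of at least 10, and p-values were adjusted by Benjamini-Hochberg over all genes tested. The study's own test, made for counts, could not be used on these values. On simulated data the fit was tested for the recovery of known changes. Depth was estimated from the spacing of low values, with an assumed dispersion of 0.05. Positions and sequences come from RefSeq TAIR10.1, whose coordinates were used alone, and 32548 of the 32833 genes matched a model there. Named genes were the members, *BAF1* and *BES1*, called neighbours, up to 4 called genes per list and the 3 most correlated genes per member. Low neighbours, *STP1*, *LTP6*, *GLP4*, AT3G55700, *MET1* and *NF-YC4* were named after their values had been seen. Of the non-members with an equal change, all with a mean under 10, only *GLP4* and AT3G55700 were named. Alternatives were pseudocounts of 0.1 and 5, no filter or a minimum mean of 50, median-of-ratios scaling, all 22 libraries in 1 fit, the replicate number as a block, the study's criterion (unadjusted p under 0.05, fold change above 1.1) and each library left out. A window of 50 genes on each side, and no filter for the equal change, were added after seeing the data. The labels do not say that replicates came from separate cultures, so p-values measure only the spread between these libraries.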

Additional observations from a re-analysis of the deposited data

Results flagged for a closer look

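Each of the 5 genes was checked in the 4 groups of 4 libraries for a library that stands apart from the other 3 (by Dixon's test of the gap to the next library over the range of the group), and 5 of 20 checks gave one. Chance gives about 1 in 20 where values are normally distributed, which was not checked. AT2G04885 gave 2 of them, at values under the floor of 3 normalized reads, 2.31 in *baf1* BRZ0 replicate 2 and 0.830 in *bes1-D* BRZ0 replicate 3. *MRD1* had 568 normalized reads in *bes1-D* BRZ0 replicate 1, above the 519 to 527 of the other 3 libraries. *CYP21-2* had 25.7 in *baf1* BRZ0 replicate 2, below 39.0 to 39.9, and 41.9 in *baf1* BRZ250 replicate 2, above 24.0 to 26.9. None of these values moved a library across the gap between WT and the mutants.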

How the results depend on the processing

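The direction of every member in the 4 mutant-WT comparisons stayed the same under all alternatives. Of these values 189 moved by less than the spread between replicates, and the other 16 changes came from the pseudocounts of 0.1 and 5. AT2G04885 ranged from −8.89 to −3.74, and with a pseudocount of 5 the *QQS* values were −3.32 to −4.02 and the AT3G05170 values 2.57 to 2.85. The number of genes with an equal change was 4. It was 2 with a minimum mean of 50, 11 without a filter, which lets in genes with a mean under 10 (chosen after seeing the data), and 3 to 6 with each library left out. Members called for BRZ numbered 0 in each genotype, except for 1 (*QQS*) in *baf1* with all 22 libraries in 1 fit and 1 (*QQS*) in *bes1-D* at the study's criterion, and stayed 0 with each library left out. For neighbours and listed genes the cause of the changes below was not tested, except that fewer or more genes enter under another filter or window.

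At the study's criterion, called neighbours numbered 3 in *baf1* BRZ0, 4 in *bes1-D* BRZ0 and 6 in *bes1-D* BRZ250, and called listed genes 9 in *baf1* BRZ0, 2 in *baf1* BRZ250, 18 in *bes1-D* BRZ0 and 27 in *bes1-D* BRZ250. Without a filter, called neighbours numbered 0 in *bes1-D* in both treatments, and called listed genes 0 in *baf1* BRZ0, 2 in *bes1-D* BRZ0 and 4 in *bes1-D* BRZ250. With all 22 libraries in 1 fit there were 2 listed genes in *baf1* BRZ0 and 4 neighbours in *bes1-D* BRZ250, and with median-of-ratios scaling 2 neighbours in *bes1-D* BRZ0. With 50 genes on each side, called neighbours numbered 1 of 193 tested in *baf1* BRZ0, 16 of 197 in *bes1-D* BRZ0 and 25 of 199 in *bes1-D* BRZ250 (0.518%, 8.12% and 12.6%, beside 0.129%, 7.52% and 11.1% of all genes). Around AT2G04885 they numbered 6 of 41 (5 lower) and 8 of 40 (7 lower) in *bes1-D*, or 14.6% and 20%. The shares in *bes1-D* without and with BRZ were 28.6% and 28.6% of 7 tested genes around *QQS*, and 8.33% and 6.12% around *MRD1*. They were 3.85% and 11.3% around AT3G05170, and 4.08% and 12% around *CYP21-2*. With each library left out, neighbours ranged from 0 to 1 in *bes1-D* BRZ0 and from 1 to 3 in *bes1-D* BRZ250, and listed genes from 0 to 2 in *baf1* BRZ0, 4 to 10 in *bes1-D* BRZ0 and 5 to 14 in *bes1-D* BRZ250. Pairing was taken to need an r over 0.1 in every pair of a comparison with 3 or more pairs, which none had (r from −0.21 to 0.26 over all pairs). The main fits therefore used no pairing, but this cutoff cannot show that libraries of the same number are unrelated. The replicate 1 pair had a positive r in 7 of 7 comparisons (0.04 to 0.26), and in none of the 4 comparisons with 3 or more pairs did every library correlate best with its own number. In *baf1* against WT with BRZ 5 of 6 libraries did, and without BRZ 3 of 6 did for each mutant. Between the treatments of *baf1* it was 2 of 8. With the replicate block, called listed genes numbered 2 in *baf1* BRZ0 and 11 in *bes1-D* BRZ0, and no other count changed by more than 1.5 times.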
